A study of Mus musculus with 4 samples.

Results

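The mitochondrial ribosomal protein genes were followed as a family in haploid and diploid mouse embryonic stem cells. Members were all genes whose probe accession maps to a symbol that begins with Mrpl or Mrps and goes on with a digit. The array carried 98 such probes for 78 genes, of 19747 named genes on the array, and 77 members passed the filter on dim probes among 17963 features in all. A feature is a gene, or an unnamed transcript, represented by its brightest probe, and it passed when the scanner software marked that probe as clearly brighter than background on both haploid or both diploid arrays.

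The study hybridised total RNA of female parthenogenetic embryonic stem cells, which derive from activated oocytes without a paternal genome, to 1-colour arrays with Cy3 dye. The haploid group held 2 samples and the diploid group 2 samples, labelled line 1 and line 2 in each group, so the 4 samples share sex, parthenogenetic origin and cell type and differ by label in ploidy. Line numbers are the only link the labels give between groups, and the series text speaks of independent experiments for each cell type. No drug, transgene, age or passage is given for these samples. Standard errors and p-values come from limma, which draws each gene's spread between 2 samples a group toward a value common to all features. They cover no spread beyond these samples.

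Mitochondrial ribosomes translate the few proteins encoded by mitochondrial DNA, all of them subunits of the respiratory chain and ATP synthase. Their RNAs come from mitochondrial DNA, whereas every protein of the large and small subunits is encoded in the nucleus, made in the cytosol and imported. Some of these proteins have a counterpart in bacterial ribosomes, and others are specific to mitochondria. Pluripotent stem cells rely strongly on glycolysis and hold mitochondria of immature shape.

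Nuclear genes for mitochondrial proteins are known for promoter elements bound by NRF1, by ETS family factors such as GABPA, and by YY1. Sequence around the start site, from 250 bases before to 50 after it, was given for 69 of the 78 members in the RefSeq table of the GRCm38.p6 build. On either strand, the NRF1 letters GCATGCGC were found in 8 members, or 11.6%, against 3.05% of 27025 genes with a window. The ETS letters CCGGAAG were found in 26 members, or 37.7%, against 9.93% of all genes, and the YY1 letters AAGATGGCG in 8 members, or 11.6%, against 1.64%. Among genes past the filter in the 2 brightest of 10 brightness classes the shares were 7.94% for NRF1, 28.1% for ETS and 5.04% for YY1, nearer to those of the members. A total of 33 members held none of the 3 words, which says only that these letters are not in this window. The median GC content was 58.7% in members' windows and 52.7% over all genes, but 60.0% over genes past the filter and 60.3% over those of the 2 brightest classes.

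The 120 bases before the start are shown for 4 members from both ends of the measured differences, so that the words can be seen in place; capitals mark NRF1 or ETS matches that lie wholly in the stretch. Mrpl22 (chr11:58171544-58171663, plus strand) holds an ETS match followed by an NRF1 match on the other strand. Mrpl58 (chr11:115403632-115403751, plus strand) holds an ETS match close to its start. Mrpl9 (chr3:94443216-94443335, plus strand) holds a palindrome that counts as 2 overlapping NRF1 matches. Mrps27 (chr13:99344666-99344785, plus strand) holds an ETS match on the other strand.
Mrpl22: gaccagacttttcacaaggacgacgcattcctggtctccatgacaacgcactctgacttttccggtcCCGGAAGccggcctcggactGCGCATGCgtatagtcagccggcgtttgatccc
Mrpl58: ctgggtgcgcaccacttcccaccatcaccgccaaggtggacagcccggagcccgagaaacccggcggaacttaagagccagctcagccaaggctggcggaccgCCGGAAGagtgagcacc
Mrpl9: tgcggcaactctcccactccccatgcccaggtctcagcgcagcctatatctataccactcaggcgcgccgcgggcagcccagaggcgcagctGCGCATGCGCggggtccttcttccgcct
Mrps27: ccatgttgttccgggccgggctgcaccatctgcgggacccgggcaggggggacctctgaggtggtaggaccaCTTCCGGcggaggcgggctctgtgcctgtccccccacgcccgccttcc

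Levels are given throughout as log2 of the processed signal minus the array's 75th percentile, and differences as haploid minus diploid on that scale. No member passed limma's test at an adjusted p of 0.05 (Benjamini-Hochberg over 17963 features), and 1 member, Mrpl49, had an unadjusted p under 0.05. The test called 0.111% of all features, 15 of them higher and 5 lower in haploid cells, so a count of 0 in 77 members is near the background. The members' adjusted p-values in the limma fit ran from 0.419 to 0.986, and the median standard error of a member's difference was 0.19.

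Small differences nevertheless lay mostly to one side. A difference above 0 was found in 61 of 77 members, or 79.2%, against 53.2% of all features, and the median over members was 0.16, a ratio of 1.12, against 0.02 over all features. Both haploid arrays lay above both diploid arrays in 28 members, or 36.4%, where 26.0% of all features did so. Both lay below in 6 members, or 7.79%, where 20.9% of all features did so. The remaining 43 members overlapped between the groups. The difference exceeded the larger of the gaps between replicates in 10 members, or 13.0%, against 30.0% of all features; of these, Mrpl28, Mrpl35, Mrpl49, Mrpl54, Mrps26 and Mrps28 were above 0 and Mrpl9, Mrpl10, Mrpl38 and Mrps27 below.

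**Figure D1:**
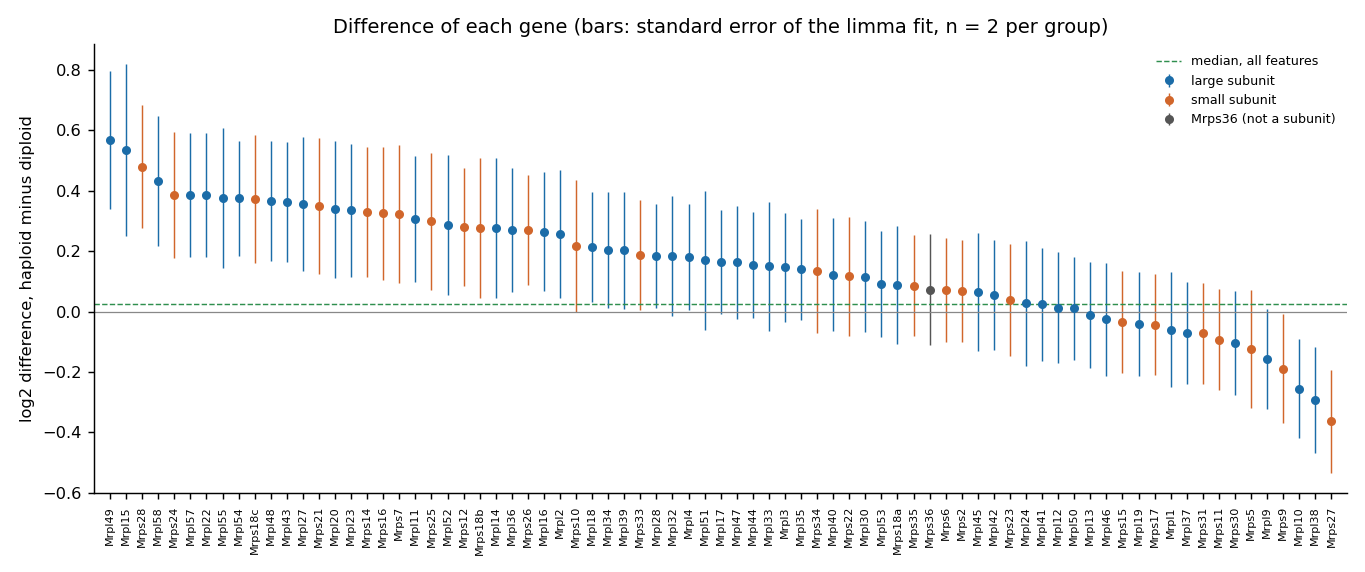
Each of the 77 members is placed by its log2 difference, haploid minus diploid, with bars for the standard error of the limma fit (n = 2 arrays per group). The differences run from 0.57 for Mrpl49 to −0.36 for Mrps27, and 61 of 77 lie above 0.

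The array of diploid replicate 2 stood apart for this family, as it did for the brightest features in general (given below). It was the lowest of the 4 arrays in 60 of 77 members, or 77.9%, against 34.5% of all features. Diploid replicate 1 lay above it in 72 of 77 members, by a median of 0.32, against 9611 of 17963 features and a median of 0.03. The haploid arrays showed no such order, with replicate 1 above replicate 2 in 41 of 77. Centred on each gene's mean, the family's median was 0.09 and 0.06 on the haploid arrays, 0.07 on diploid replicate 1 and −0.22 on diploid replicate 2. Diploid replicate 1 thus lay level with the haploid arrays. Without diploid replicate 2 the median difference was 0.02, with 43 of 77 above 0; without diploid replicate 1 it was 0.29, with 67 of 77 above 0. The SD of the family's median between replicates was 0.16, the same size as the median difference itself.

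**Figure D2:**
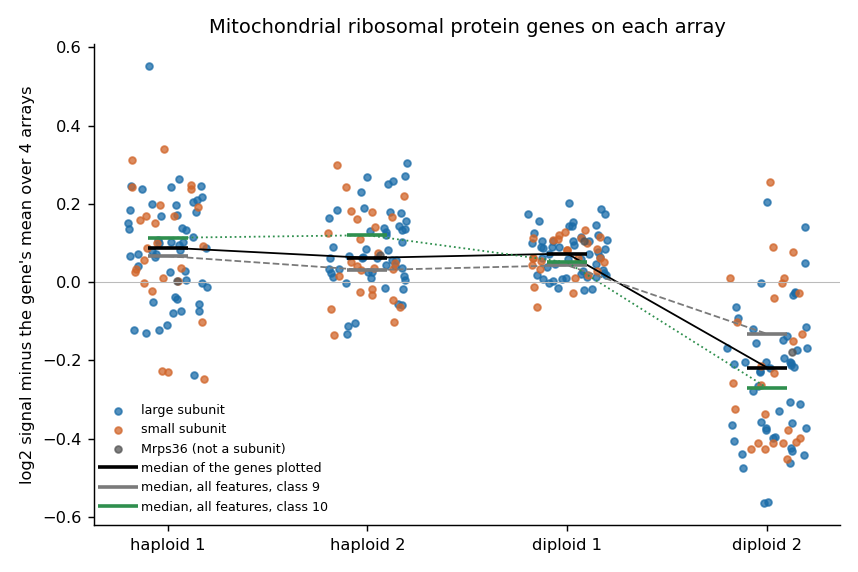
Points show each member's log2 signal minus its own mean over the 4 arrays, by array. The family is lowest on diploid replicate 2, with a median of −0.22, while diploid replicate 1, at 0.07, sits with the haploid arrays at 0.09 and 0.06.

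The difference also followed the brightness of the probe, both in the family and on the array as a whole. Features were split into 10 classes of equal size by mean level, and 59 of the 77 members fell in the 2 brightest. In the brightest class 27 of 28 members were above 0, with a median of 0.28, and 90.5% of the 1797 features of that class were above 0, with a median of 0.22. Diploid replicate 2 was the lowest array for 28 of those 28 members and for 1594 of those 1797 features. In the class next to it 27 of 31 members were above 0, with a median of 0.16, beside 69.7% of all its features and a class median of 0.09.

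Shares without overlap were likewise close to those of the class. Among members of the brightest class, 53.6% had both haploid arrays above both diploid arrays, and 52.6% of all features of that class did so. In the class next to it the shares were 32.3% of members and 30.1% of features. Measured against the median of its own class, the family's median difference was 0.06, with 46 members above and 31 below their class, and the SD of that relative median between replicates was 0.06. Without diploid replicate 2 the relative median was 0.0029.

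The 18 members below the 2 brightest classes did not share the shift. Their median difference was −0.05, and 7 of 18 were above 0. Both haploid arrays lay below both diploid arrays in 6 of 18, or 33.3%, against 20.9% of all features. Both lay above in 3 of 18, or 16.7%, against 26.0% of all features. In the seventh and eighth classes 5 of 16 members, or 31.3%, lay below without overlap, against 20.5% of all features there, and 2 of 16, or 12.5%, lay above, against 26.1%. All 6 members without overlap on the lower side were among these 18: Mrps11, Mrpl9, Mrps9, Mrpl10, Mrpl38 and Mrps27. For Mrps11 the margin was narrow, with haploid replicate 1 at 1.3590 and diploid replicate 2 at 1.3592.

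**Figure D3:**
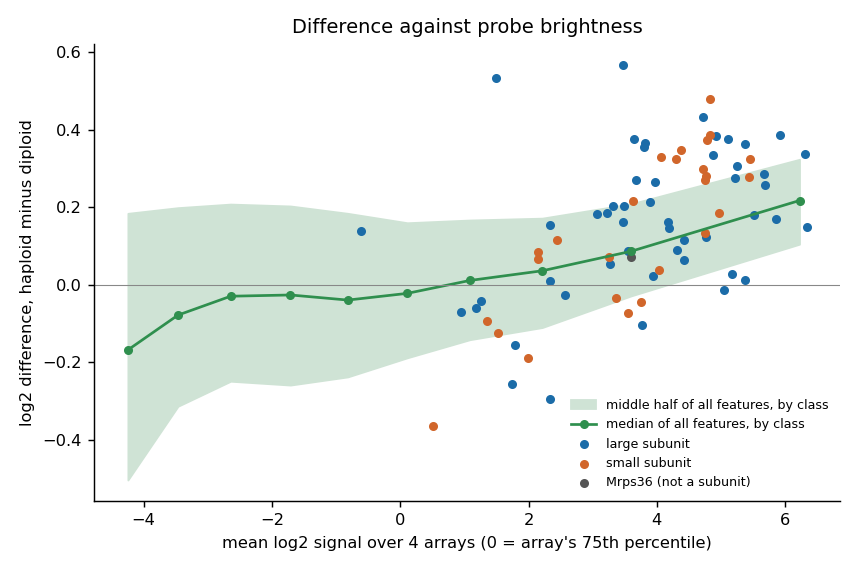
The log2 difference, haploid minus diploid, is plotted against the mean log2 level over the 4 arrays, with members over all features and the median of each brightness class. Bright members follow the class medians, which reach 0.22 in the brightest class, and the dimmer members scatter around and below 0.

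In the large subunit, which holds the peptidyl transferase centre and the exit tunnel, 41 of 50 measured members were above 0. The median was 0.17, or 0.06 against the brightness class, with 0 called by limma. Without overlap, 20 were higher (40.0%, against 26.0% of all features) and 3 lower (6.0%, against 20.9%). Mrpl49, a protein specific to mitochondria, had the largest difference of the family. Its levels were 3.74 and 3.78 in haploid and 3.47 and 2.91 in diploid samples, a difference of 0.57 ± 0.23 (SE, n = 2 per group; limma adjusted p = 0.419). The groups did not overlap, but the gap between the diploid samples was as large as the difference between groups, and without diploid replicate 2 the difference was 0.29.

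Mrpl15, which has a bacterial counterpart, measured 2.05 and 1.48 in haploid and 1.53 and 0.94 in diploid samples. The groups overlapped, and the difference of 0.53 ± 0.28 (SE, n = 2 per group) had a limma adjusted p of 0.512. Its replicates lay 0.57 apart in the haploid group and 0.59 apart in the diploid group, each wider than the difference itself.

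Mrpl58, a peptidyl-tRNA hydrolase of the codon-independent release factor family built into the large subunit, measured 4.96 and 4.91 in haploid and 4.75 and 4.26 in diploid samples. Its difference was 0.43 ± 0.22 (SE, n = 2 per group; limma adjusted p = 0.493) and was 0.19 without diploid replicate 2. Mrpl57, specific to mitochondria, measured 6.06 and 6.18 against 5.95 and 5.52, a difference of 0.39. Mrpl22, whose bacterial counterpart lines the exit tunnel, measured 5.03 and 5.19 against 4.93 and 4.52, a difference of 0.38. In all 3, diploid replicate 1 lay close below the haploid arrays and diploid replicate 2 well under it. Mrpl52 and Mrpl55 had the widest replicate gaps after Mrpl15. Mrpl55 showed the same order, with a difference of 0.38 that was 0.09 without diploid replicate 2. For Mrpl52 diploid replicate 1 lay between the haploid arrays, and its difference of 0.29 was −0.0017 without diploid replicate 2.

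At the other end of the large subunit stood Mrpl38, Mrpl10 and Mrpl9. Mrpl38, specific to mitochondria, measured 2.09 and 2.27 in haploid and 2.42 and 2.54 in diploid samples, a difference of −0.29 ± 0.17 (SE, n = 2 per group; limma adjusted p = 0.539). Mrpl10, the base of the flexible stalk that recruits translation factors, measured 1.63 and 1.62 in haploid and 1.86 and 1.89 in diploid samples. Its replicates lay close together in both groups, the difference was −0.26 ± 0.16 (SE, n = 2 per group; limma adjusted p = 0.567), and its other probe gave −0.28. Mrpl9 measured 1.75 and 1.68 against 1.89 and 1.84, a difference of −0.16. None of these 3 rested on diploid replicate 2: without it they were −0.23, −0.24 and −0.18. With normexp background correction on all spots, however, they were 0.07, 0.05 and 0.13.

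Mrpl12, the stalk protein that Mrpl10 anchors, did not share that difference. Its levels were 5.44 and 5.31 in haploid and 5.49 and 5.23 in diploid samples, which overlapped, with a difference of 0.01 ± 0.18 (SE, n = 2 per group). Mrpl37 and Mrps30, both specific to mitochondria and the latter a large subunit protein despite its symbol, had differences of −0.07 and −0.10. Mrpl41, another protein specific to mitochondria, had 0.02. Mrpl21 was the only member that did not pass the filter: its single probe gave −6.79 and −6.52 in haploid and −6.82 and −5.50 in diploid samples, in each case not well above background, so no difference is given for it.

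In the small subunit, which reads the messenger RNA, 19 of 26 members were above 0, with a median of 0.16, or 0.05 against the brightness class. Limma called 0 of them. Without overlap, 8 were higher (30.8%, near the 26.0% of all features) and 3 lower (11.5%, against 20.9%). Mrps28 measured 5.07 and 5.08 in haploid and 4.81 and 4.38 in diploid samples, a difference of 0.48 ± 0.20 (SE, n = 2 per group; limma adjusted p = 0.434) that came to 0.27 without diploid replicate 2. Mrps24 measured 4.91 and 5.12 against 4.83 and 4.43, a difference of 0.39. Mrps21 measured 4.69 and 4.41 against 4.44 and 3.97, a difference of 0.35 with overlapping groups. Mrps14 measured 4.22 and 4.25 against 4.15 and 3.66, a difference of 0.33, and its other probe gave 0.15. Without diploid replicate 2 the differences of Mrps24, Mrps21 and Mrps14 were 0.18, 0.11 and 0.08.

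Mrps12, the protein of the decoding centre, measured 4.94 and 4.88 in haploid and 4.81 and 4.45 in diploid samples, a difference of 0.28 that was 0.10 without diploid replicate 2. The 3 paralogues related to one bacterial protein were all above 0 with all 4 arrays, by different amounts. Mrps18c measured 4.97 and 4.96 against 4.83 and 4.35, a difference of 0.37 that was 0.13 without diploid replicate 2. Mrps18b measured 5.69 and 5.48 against 5.58 and 5.03, a difference of 0.28 that was 0.0046 without diploid replicate 2. Mrps18a, a large subunit protein, had a difference of 0.09 that was −0.10 without diploid replicate 2. Its sign held in 10 of the 15 settings counted below. The differences between paralogues were not tested.

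Mrps27, a pentatricopeptide repeat protein, had the lowest difference of the family. It measured 0.29 and 0.38 in haploid and 0.62 and 0.77 in diploid samples, a difference of −0.36 ± 0.17 (SE, n = 2 per group; limma adjusted p = 0.470), and −0.29 without diploid replicate 2. Mrps9 measured 1.77 and 2.04 against 2.11 and 2.08, a difference of −0.19. Mrps5, Mrps11 and Mrps31 had differences of −0.12, −0.09 and −0.07. Against the medians of their brightness classes, Mrps27, Mrpl38 and Mrpl10 stood at −0.34, −0.33 and −0.29, and at the upper end Mrpl15 and Mrpl49 at 0.52 and 0.48.

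Members were also grouped by evolutionary origin. Of the 3 related paralogues above, Mrps18c was counted as having a bacterial counterpart, and Mrps18a and Mrps18b as specific to mitochondria. The 45 measured members with a bacterial counterpart had a median difference of 0.18, or 0.08 against the brightness class. The 31 specific to mitochondria had 0.12, or 0.00062 against the class. Without diploid replicate 2 the 2 median differences were 0.06 and −0.01, and the contrast by origin was not tested. Mrps36, which carries a ribosomal symbol but is known as a component of the 2-oxoglutarate dehydrogenase complex, had a difference of 0.07 and was counted in neither subunit.

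A total of 20 members had a second probe past the filter, which reads the same gene at another brightness. The difference, with its sign kept, was higher in the brighter probe in 17 of 20. Its median was 0.18 in the brighter and 0.03 in the dimmer probes, and 18 brighter but 11 dimmer probes were above 0. These 17 include Mrpl50, Mrpl41 and Mrpl10, where the dimmer probe's difference was below 0 and larger in size. The value of diploid replicate 1 minus diploid replicate 2, with its sign kept, was higher in the brighter probe in 18 of 20. Its medians were 0.29 and 0.08. These 18 include Mrps2, with −0.06 and −0.45, where the dimmer probe had the wider gap. Probes of a gene can also differ in the transcripts they bind, which was not tested.

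The probes gave opposite signs in 7 genes. For Mrpl49 the dimmer probe measured 2.35 and 2.26 in haploid and 2.56 and 2.42 in diploid samples, a difference of −0.18 where the brighter gave 0.57. For Mrps18b the dimmer probe gave −0.17 against 0.28, for Mrps7 −0.11 against 0.32, and for Mrpl50 −0.23 against 0.01. The largest difference of the family was thus not seen by the second probe of the same gene. For Mrpl22 the second probe gave 0.0032 against 0.38.

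**Figure D4:**
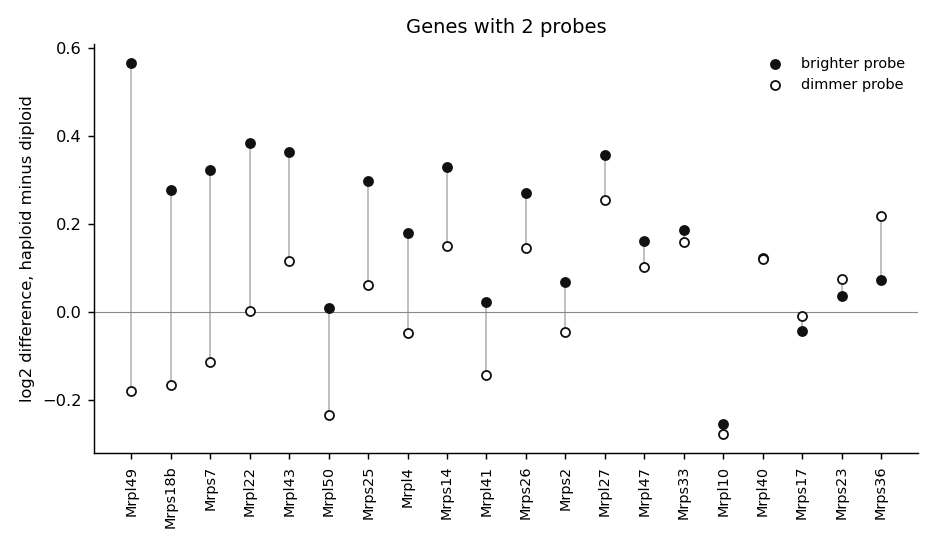
For each of the 20 members with a second probe, the log2 difference, haploid minus diploid, is shown for the brighter and the dimmer probe. The brighter probe lies above the dimmer in 17 of 20, and the pair has opposite signs in 7.

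The promoter words were set beside the differences as a description. Members with the ETS letters had a median difference of 0.27 (25 measured) and those without 0.11 (43 measured), or 0.08 and 0.03 against the brightness class. With and without the NRF1 letters the medians were 0.17 and 0.17, and with and without the YY1 letters 0.07 and 0.18. Of the 4 windows printed above, Mrpl22 and Mrpl9 both hold NRF1 letters, with differences of 0.38 and −0.16, and Mrpl58 and Mrps27 both hold ETS letters, with 0.43 and −0.36.

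Other genes of mitochondrial gene expression were examined in 7 lists, in none of which limma called a gene. The 5 ribosome subunits without a member symbol were all above 0, with a median of 0.15, or −0.07 against their brightness class. Aurkaip1 measured 6.81 and 6.68 in haploid and 6.54 and 5.91 in diploid samples, a difference of 0.52, and Gadd45gip1 had 0.43. Dap3, a GTP-binding small subunit protein, measured 5.60 and 5.78 against 5.74 and 5.39, a difference of 0.13 ± 0.20 (SE, n = 2 per group), Chchd1 had 0.15 and Ptcd3 0.04. Without diploid replicate 2, both Dap3 and Chchd1 came to −0.05.

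Translation factors, which start, extend, end and recycle mitochondrial translation, showed no common direction. Of 16 measured, 8 were above 0, and the median was −0.0051. Without overlap, 5 were higher (31.3%, against 26.0% of all features) and 6 lower (37.5%, against 20.9%). Mtif2, the initiation factor that brings the first tRNA, measured 4.58 and 4.60 in haploid and 4.09 and 4.15 in diploid samples, a difference of 0.47 ± 0.16 (SE, n = 2 per group; limma adjusted p = 0.36) that was 0.50 without diploid replicate 2. Mrrf, the ribosome recycling factor, had 0.64 at a low level, and Guf1 and Tsfm, both elongation factors, had −0.42 and −0.27.

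Mitochondrial tRNA synthetases, which load tRNAs with amino acids, were above 0 in 8 of 18 measured of 20 listed, with a median of −0.08. Fars2 and Hars2 had 0.33 and 0.26, and Iars2 and Mars2 −0.29 each. Among factors of ribosome assembly and rRNA modification 12 of 26 measured of 27 listed were above 0, with a median of −0.006. Without overlap, 2 were higher (7.69%, against 26.0% of all features) and 9 lower (34.6%, against 20.9%). Gtpbp10, a GTPase of large subunit assembly, measured 0.48 and 0.39 in haploid and 0.82 and 0.94 in diploid samples, a difference of −0.44 ± 0.17 (SE, n = 2 per group; limma adjusted p = 0.39). Mettl17, needed for small subunit assembly, also had −0.44, while Malsu1 and Eral1, which act on the large and small subunit, had 0.26 and 0.22.

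Genes that copy and transcribe mitochondrial DNA were above 0 in 7 of 17, with a median of −0.01. Twnk, the helicase of the replication fork, measured −1.06 and −1.18 in haploid and −0.67 and −0.58 in diploid samples, a difference of −0.50 ± 0.17 (SE, n = 2 per group; limma adjusted p = 0.34). Polg, the catalytic subunit of the DNA polymerase, had −0.33, and Slirp and Top1mt had 0.30 each. Slirp came to 0.01 without diploid replicate 2, whereas Top1mt stayed at 0.31.

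Nuclear regulators of mitochondrial genes were above 0 in 7 of 11 measured of 13 listed, with a median of 0.10. Pprc1, a coactivator, had 0.55 and Mycn 0.41, and Gabpa, the DNA-binding subunit of the ETS factor, had −0.26. The coactivator Ppargc1b was not well above background in the haploid samples and passed the filter only through the diploid ones. Its measured means were −5.12 in haploid and −3.79 in diploid samples (limma adjusted p = 0.21). The diploid mean lay 2.10-fold above the lowest signal well above background on the haploid arrays. That signal is not a detection limit for this probe, so no smallest fold is given. Nrf1 measured 0.15 and −0.57 in haploid and −0.62 and −0.57 in diploid samples, so its difference of 0.38 rested on haploid replicate 1.

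Genes of protein import, whose probes had a median level of 4.89, were above 0 in 23 of 31 measured of 33 listed. Their median was 0.16, or −0.0014 against the brightness class, and 0.0054 without diploid replicate 2. Timm17b and Timm23, channel proteins of the inner membrane, had 0.52 and 0.43. Timmdc1 was counted in this list, but it is known as an assembly factor of respiratory complex I rather than an import protein. Timmdc1 measured 1.19 and 1.23 in haploid and 1.66 and 1.89 in diploid samples, a difference of −0.57 ± 0.18 (SE, n = 2 per group; limma adjusted p = 0.31), and Pmpca, a subunit of the protease that removes import signals, had −0.41.

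**Figure D5:**
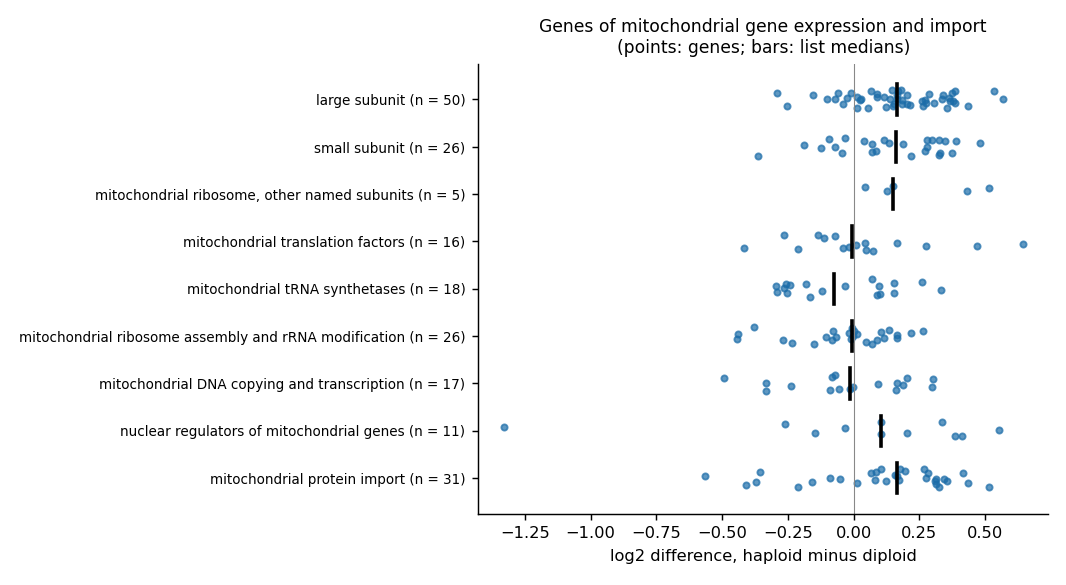
Points are genes and bars list medians of the log2 difference, haploid minus diploid, for the ribosomal protein family and the 7 other lists. The family and the import genes have medians of 0.16 each, and translation factors, synthetases, assembly factors and genes of mitochondrial DNA lie between −0.08 and −0.0051. These medians are not set against the brightness class, which the difference also followed, and the contrast between lists was not tested.

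The 75th percentile of the processed signal, against which each array was scaled, was 526 and 553 intensity units on the haploid arrays, 617 on diploid replicate 1 and 907 on diploid replicate 2. No spot was saturated, all 4 arrays lay on 1 slide with 1 scan time, and all 77 members were well above background on every array. Embryonic stem cell markers were well above background in 8 of 8 genes, with a summed level of 209 and 205 times the 75th percentile in haploid and 199 and 174 times in diploid samples. Fibroblast markers, which feeder cells would carry, were also above background in 8 of 8, with summed levels of 11.5 and 8.84 against 7.21 and 5.46. Trophectoderm markers passed the filter in 4 of 6, without Cdx2 and Elf5, with 7.18 and 6.97 against 3.35 and 3.25. Primitive endoderm markers passed in 2 of 5, without Sox17, Foxa2 and Pdgfra, and summed to at most 0.137. The embryonic stem cell, fibroblast and trophectoderm sums were each lowest on diploid replicate 2, as the family was. For trophectoderm, however, the 2 diploid sums lay close together and well under the haploid ones, unlike the family's levels. The primitive endoderm sum was highest on diploid replicate 2, but 0 of its 2 measured genes were well above background on all 4 arrays. The part of other cells in the family's difference was not tested. Equal RNA was labelled for each sample, so RNA per cell and the number of cells cannot be told apart here.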

How the data were processed

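Total RNA of 4 samples was labelled with Cy3 and hybridised, per the labels' protocols. The authors deposited scanner output of Agilent Feature Extraction 11.0.1.1 (per the submitters' processing notes and the file headers), whose processed signal is a background-corrected intensity in linear units. Control spots and spots with outlier flags were left out, probes averaged, log2 taken and each array's 75th percentile subtracted. Of 39429 gene probes, 26049 were named by accession through the RefSeq table. A gene was read from its brightest probe among those that passed the scanner's background test in both samples of a group. limma 3.58.1 in R 4.3.3 (lmFit, eBayes, two-sided, Benjamini-Hochberg, threshold 0.05) compared 2 haploid with 2 diploid samples over 17963 features; the script was tested on simulated data. Promoters were searched in Python 3.11.15, with pandas 2.3.3 and numpy 2.4.6. The authors' deposited value table, also intensity, served as an alternative, as did background, normalization, filter, probe, prior and left-out arrays. With so few arrays, their number limits precision.

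Members and lists were chosen with earlier results of these data known. Named genes are the 5 largest and 5 smallest differences of each subunit, preset members, those without overlap past 0.5, the 3 with the widest replicate gaps, members that failed the filter, up to 4 with a second probe of opposite sign, and the 2 largest and 2 smallest of each other list; Nrf1 and the members whose difference exceeded their replicate gaps were added after their values were seen. Coordinates belong to the promoter table alone. Of the members, 4 also have pseudogenes in RefSeq, whose RNA a probe might bind.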

Additional observations from a re-analysis of the deposited data

How the results depend on the processing

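No member was called in any setting. The count of all features called was 20, and moved to 0 with normexp on all spots, 122 with normexp once spots in bright surroundings were left out (chosen after seeing the data), 5 with quantile normalization, 0 with cyclic loess, 83 with median scaling, 4 with the value table, 0 with no filter, 82 with probes above background on all 4 arrays, 0 with the mean of a gene's probes and 425 with a trended, robust prior. Leaving out an array gave 0 to 294 calls: 226 without haploid replicate 1, 294 without haploid replicate 2 and 0 without either diploid replicate. The files hold no mean signal, so normexp used the median signal. With normexp on all spots the family's median was 0.58 and that of all features −0.10, a shift of −0.13; the cause was not tested. Otherwise the family's median ran from 0.02 without diploid replicate 2 to 0.29 without diploid replicate 1, and was 0.06 with quantile normalization or cyclic loess and 0.07 with the value table, with 44, 45 and 46 of 77 above 0. Against brightness it ran from 0.0029 to 0.08. The sign of 50 of 77 members held in all 15 settings counted, which leave out normexp on all spots; with that correction 16 members changed sign. They include 9 of the named lower members: Mrpl10 turned to 0.05, Mrpl38 to 0.07, Mrpl37 to 0.08, Mrps9 to 0.09, Mrps5 to 0.11, Mrpl9 to 0.13, Mrps11 to 0.14, Mrps30 to 0.25 and Mrps31 to 0.30, while Mrps27 stayed at −0.14.

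With the replicate number as a block, 2 features and 0 members were called. Deviations of same-numbered samples correlated at 0.05 over all features and 0.34 over the family, with only 2 pairs, so the numbers were not taken as pairing.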
